A study of Mus musculus with 28 samples.

Results

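mmu-miR-122-5p is the 5′ arm of the miRNA that dominates the miRNA pool of hepatocytes, the main cells of the liver. It was followed here in small RNA libraries of mouse sperm together with exon reads of 6 genes whose proteins hepatocytes secrete into the blood. The 6 genes are Alb (serum albumin), Trf (transferrin, the iron carrier), Ttr (transthyretin, the carrier of thyroxine and of the retinol-binding protein), Apoa1 and Apoa2 (the main proteins of high-density lipoprotein) and Fgb (the fibrinogen beta chain, a precursor of fibrin). These 7 features were chosen by name, out of 1395 miRNA names and 22642 exon gene names with a count. The question was whether the miRNA and the secreted-protein exons varied together from library to library.

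miR-122 is made in the nucleus as a longer hairpin and is cut to its mature form in the cytoplasm, where it represses messenger RNAs that match its seed; in liver it is known for its part in lipid metabolism. It is also found in blood plasma when liver cells are injured. The plasma proteins are made from abundant liver messenger RNAs under liver-enriched transcription factors such as HNF1 and C/EBP. Some of these genes are also used outside the liver: Trf is made by Sertoli cells of the testis, and Ttr by the choroid plexus. In bulk libraries such as these, fewer cells of a type and less RNA per cell cannot be told apart.

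The 28 libraries fell into 8 groups in 3 count tables. In the first table, wild-type (WT) males had no alcohol (4 libraries), a low dose (4), a medium dose (2) or a high dose of alcohol (2). The second table held Nrf2-/- males, which lack the antioxidant transcription factor Nrf2 in every tissue, with ethanol (4) or without alcohol (4). The third held Nrf2 liver KO males, with floxed Nrf2 and Albumin-Cre (4), and Nrf2 flox males with the floxed alleles alone (4), neither labelled as exposed to alcohol. In the liver KO the albumin promoter drives Cre, which limits the deletion to cells that use this promoter, chiefly hepatocytes; sperm of these males are therefore not the cells meant to lose Nrf2. The sources used here do not give the amounts of alcohol, the strain or the age of the mice. Nothing says whether replicates came from separate animals, so p-values measure only the spread between these samples, which may be technical. Genotype and table cannot be told apart, and levels set across tables were not tested.

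Total counts ran from 1993933 to 11119711 per WT library, from 3922109 to 6448390 in the Nrf2-/- table and from 2567463 to 4394714 in the liver KO table. WT control 1 stood apart: structural RNA took 75.8% of its counts, against 22.5 to 31.8% in the other 11 WT libraries, and 2.85% of its counts were exon reads. The summed exons of 8 sperm and spermatid genes (Prm1, Prm2, Tnp1 and others) lay between 155 and 890 CPM (counts per 1000000 counts) in all libraries. Nfe2l2, the gene of Nrf2, kept 0 to 20 exon reads in the Nrf2-/- libraries, against 4 to 47 in WT libraries; which part of the gene was deleted is not given, and these reads do not check the genotype. Liver KO libraries had 0 to 22 of its reads, against 9 to 20 in flox libraries. The table column that the label of WT medium dose 1 names is spelled like the high-dose columns, and the label was followed.

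The miRNAs compared with miR-122 are shown with their seeds (bases 2 to 8) in capitals, because Nrf2-/- ethanol 4, the library with the most miR-122 reads, had at most 4 reads of each. miR-192-5p and miR-194-5p share a cluster and are liver-enriched, though also found in gut and kidney; miR-148a-3p is abundant in liver and in many other tissues; miR-451a marks red blood cells. The sequence of miR-122 is not shown here. The sequences are from RefSeq (GRCm38.p6, at chr19:6264857-6264877 on the plus strand, chr1:185313325-185313346 and chr19:6264658-6264679 on the plus strand, chr6:51269829-51269850 on the minus strand and chr11:78073186-78073207 on the plus strand, in the order of the lines).
mmu-miR-192-5p: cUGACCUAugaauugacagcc
mmu-miR-194-5p: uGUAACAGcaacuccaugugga
mmu-miR-148a-3p: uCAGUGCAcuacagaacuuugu
mmu-miR-451a: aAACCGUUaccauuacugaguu
No pair of these shares a seed.

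miR-122-5p was detected in every library, and its level spread widely within nearly every group. Values are CPM of miRNA counts, scaled by the trimmed mean of M values (TMM) within each table. In WT males the 4 control libraries had 642, 81.1, 222 and 236 CPM, and the low-dose libraries had 360, 406, 9.39 and 44.2 CPM. The medium-dose pair had 623 and 12.3 CPM, and the high-dose pair 151 and 43.1 CPM. Every dosed group overlapped the controls, and the libraries of the low and medium doses each split into high and low ones. The 9 reads of WT medium dose 2 and the 11 reads of WT low dose 3 were the fewest, against 868 reads in WT medium dose 1.

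The Nrf2-/- libraries held more reads of the miRNA. The ethanol libraries had 3491, 1399, 1112 and 23624 CPM, and the Nrf2-/- control libraries had 371, 935, 2208 and 2169 CPM. Nrf2-/- ethanol 4, with 28040 reads or 1.47% of its miRNA counts (95% Wilson score interval 1.45 to 1.49%), lay far above the other 7 libraries. Of the remaining ethanol libraries, 2 lay within the range of the controls and ethanol 1 lay above it. In the third table the liver KO libraries had 4390, 6860, 7331 and 4238 CPM, and the flox libraries had 7056, 12020, 12851 and 2263 CPM, so that all 4 liver KO libraries fell inside the flox range. Intervals and floors given here cover counting error only.

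Medians of miR-122-5p were 2445 CPM in Nrf2-/- ethanol and 1552 CPM in Nrf2-/- control libraries, and 5625 CPM in liver KO and 9538 CPM in flox libraries. WT medians were 229 CPM in controls and 202, 318 and 97.1 CPM at the low, medium and high dose. Neighbours in the order of the 8 medians overlapped in every case. The opposite arm, mmu-miR-122-3p, had 0 to 3 reads in each library.

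**Figure D1:**
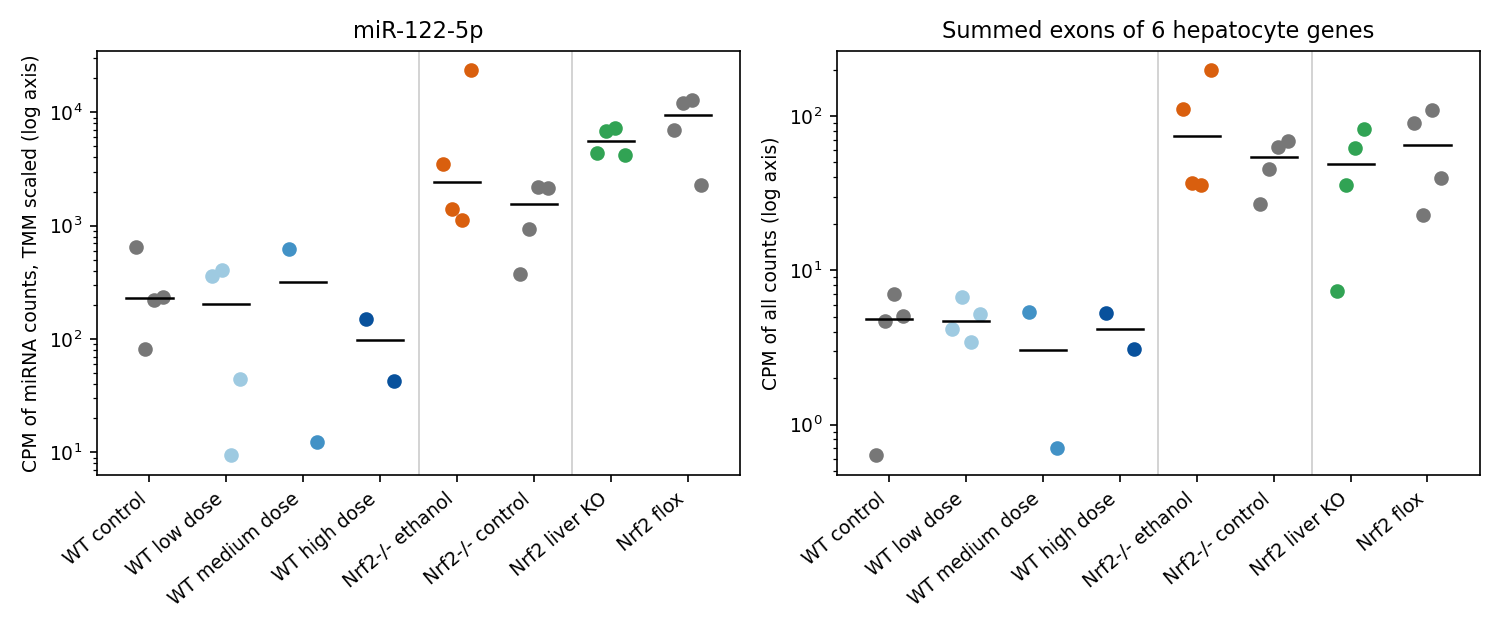
Level of miR-122-5p (left, CPM of miRNA counts, TMM scaled within each table) and of the summed exons of Alb, Trf, Ttr, Apoa1, Apoa2 and Fgb (right, CPM of all counts), both on log axes; each point is 1 library, black lines are group medians and grey lines part the 3 tables. Nrf2-/- ethanol 4 is the highest library in both panels (23624 and 199 CPM), and all 12 WT libraries lie at or below 7.02 CPM in the right panel.

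Alb was the most read of the 6 genes in the Nrf2-/- and liver KO tables, and Trf in the WT table. Alb exons took 2034 reads in the 8 Nrf2-/- libraries and 1023 in the 8 liver KO and flox libraries, but 137 in the 12 WT libraries; Trf took 482, 319 and 167 reads. Apoa1 had 204, 134 and 30 reads, Ttr 134, 70 and 6, Apoa2 65, 66 and 4, and Fgb 65, 45 and 8. No exon row of the 6 genes was shared with another gene.

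Per kilobase of transcript, in CPM from the summed counts of a table, Alb led with 25.03 in the Nrf2-/- table and 17.4 in the liver KO table, where Apoa1 came next with 4.93 and 4.48. In the WT table Alb and Trf were close, at 0.770 and 0.742 CPM per kilobase. Alb therefore stood above the other 5 genes in both tables with Nrf2 alleles, but shared the lead with Trf in WT libraries.

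Reads lay on exons and were spread along Alb and Trf. Alb had reads on 15 exon rows in the Nrf2-/- table, with 14.8% of its reads on the fullest row, and 2034 exon reads stood against 12 intron reads. Trf had 482 exon reads against 12 intron reads in the Nrf2-/- table, but 167 against 39 in the WT table. Apoa1 differed, with 65.2% of its Nrf2-/- reads and 85.1% of its liver KO table reads on a single exon row. WT libraries thus held not only fewer exon reads of Alb and Trf, but more intron reads per exon read.

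Alb had 75.1, 25.7, 24.6 and 135 CPM of all counts in the Nrf2-/- ethanol libraries, against 17.8, 31.3, 41.8 and 48.5 CPM in the Nrf2-/- controls. It had 4.89, 17.5, 42.3 and 49.03 CPM in the liver KO libraries, against 54.5, 13.1, 69.2 and 26.9 CPM in the flox libraries. In WT males it had 0.270, 2.49, 2.51 and 1.72 CPM in controls, 2.21, 3.15, 0.660 and 1.17 CPM at the low dose, 2.76 and 0 CPM at the medium dose, and 1.84 and 0.769 CPM at the high dose. No Alb read was found in WT medium dose 2, where 3 counts would be 0.422 CPM. The groups of each comparison overlapped.

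The promoters of Alb and Fgb are shown because the liver KO carries Albumin-Cre, and because their windows hold the motif searched. The search is given for Alb, Apoa1, Apoa2 and Fgb only, and not for Trf or Ttr. The Alb window is that of the mouse gene itself, and whether the Cre construct holds this stretch is not known here. They are the RefSeq windows of 250 bases before to 50 after the annotated start (GRCm38.p6). Capitals mark GTTAAT or its other strand ATTAAC, 1 arm of the palindrome that HNF1 binds. Both strands were searched, and no other motif was looked for.
Alb, chr5:90460620-90460919, plus strand: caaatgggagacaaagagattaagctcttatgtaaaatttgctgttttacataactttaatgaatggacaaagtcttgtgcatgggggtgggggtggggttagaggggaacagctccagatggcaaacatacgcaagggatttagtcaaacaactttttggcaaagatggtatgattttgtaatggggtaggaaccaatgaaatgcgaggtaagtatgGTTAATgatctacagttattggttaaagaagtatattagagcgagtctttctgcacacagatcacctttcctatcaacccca
Fgb, chr3:83049814-83050113, minus strand: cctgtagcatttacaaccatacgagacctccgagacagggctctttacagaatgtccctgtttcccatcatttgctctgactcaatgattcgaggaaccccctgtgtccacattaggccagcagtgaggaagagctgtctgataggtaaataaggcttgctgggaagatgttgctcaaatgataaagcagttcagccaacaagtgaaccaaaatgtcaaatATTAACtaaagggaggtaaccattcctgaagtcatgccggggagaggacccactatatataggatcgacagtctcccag
Each window holds 1 match, 32 bases before the annotated start in Alb and 29 in Fgb. The match occurs in 7.1% of the 32851 promoter windows of the table; neither the Apoa1 window nor the 2 Apoa2 windows hold it. A match is a description of the letters and no evidence of binding.

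Trf had reads in all 28 libraries. It had 17.0, 5.38, 6.56 and 31.6 CPM in Nrf2-/- ethanol libraries, against 4.36, 7.57, 11.2 and 11.3 CPM in Nrf2-/- controls. It had 2.14, 12.9, 11.6 and 17.3 CPM in liver KO libraries, against 16.0, 3.58, 18.7 and 4.92 CPM in flox libraries. WT libraries had between 0.360 and 3.01 CPM of Trf.

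The lipoprotein genes, Ttr and Fgb were scarce. Apoa1 had 8.79, 2.69, 1.06 and 15.1 CPM in Nrf2-/- ethanol libraries, against 1.24, 2.35, 5.35 and 4.03 CPM in Nrf2-/- controls. Ttr had 6.28, 1.96, 1.91 and 8.62 CPM in Nrf2-/- ethanol libraries, against 1.45, 1.68, 2.80 and 2.17 CPM in Nrf2-/- controls. For both genes Nrf2-/- ethanol 1 and ethanol 4 exceeded all 4 controls, and the other 2 ethanol libraries lay inside or below the control range. Apoa2 and Fgb had at most 22 and 25 reads in any library, and reads of them were found in 19 and 18 of the 28 libraries.

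The make-up of the 6-gene sum was steadiest in the Nrf2-/- table. Alb took 66.2 to 70.0% of the summed reads in each of its 8 libraries, 48.7 to 68.4% in the liver KO and flox libraries, and 0 to 53.1% in WT libraries. With 5 to 62 summed reads, WT shares are loose: the 42.9% of WT control 1, from 7 reads, has a 95% Wilson score interval of 15.8 to 75.0%. In the Nrf2-/- and liver KO tables the 6 genes also tended to move together. Over the 15 pairs, the median Pearson r of deviations from group means of log2 CPM (0.5 added to each count) was 0.88 and 0.75 there. It was 0.63 in the WT table, where Ttr, Apoa2 and Fgb had 6, 4 and 8 reads in all. In a library without reads, the value of a gene is only the added 0.5 over the library's total. Genes without reads then share a value, so the WT median does not show that the genes moved together. This also touches liver KO 1, where Ttr, Apoa2 and Fgb had no read. Pairs of the liver KO table went down to r of 0.37, for Apoa1 with Fgb. All 6 genes are divided by the same library total, and its part was not tested. The highest pair was Alb with Trf in the Nrf2-/- table, at 0.99.

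**Figure D2:**
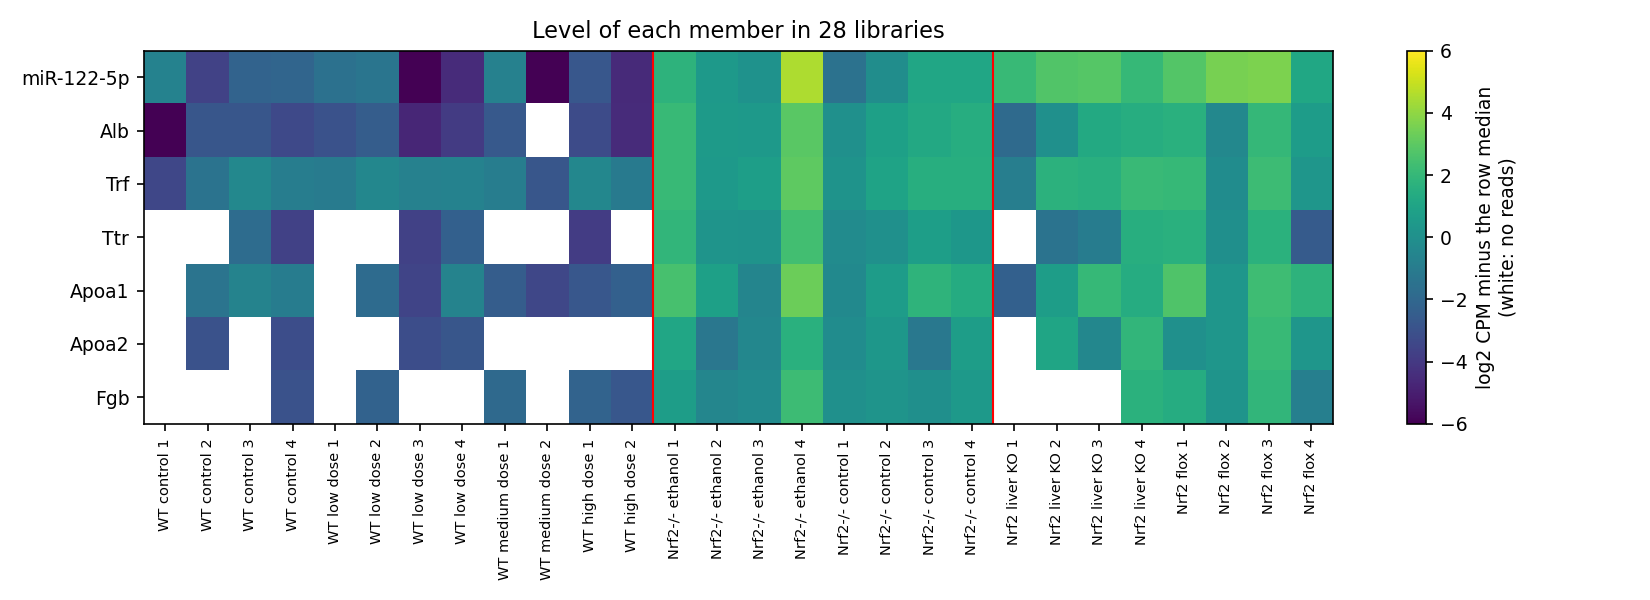
Log2 CPM of miR-122-5p (of miRNA counts) and of each gene's exons (of all counts) minus the row's median over libraries with reads, for 28 libraries ordered by table and group; white cells have no reads and red lines part the tables. Nrf2-/- ethanol 4 and ethanol 1 lie above the median in all rows, ethanol 1 only a little for Fgb, and Ttr, Apoa2 and Fgb are white in most WT libraries.

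Ethanol in Nrf2-/- males was the comparison in which the members had the highest fitted changes, but none passed the test. The log2 change of mmu-miR-122-5p was 2.38 (SE 1.09, 4 against 4 libraries), with an adjusted p of 0.999 in the quasi-likelihood test of edgeR with Benjamini-Hochberg adjustment over 237 miRNAs; its unadjusted p was 0.0565. Without Nrf2-/- ethanol 4 the change was 0.56. None of the 237 miRNAs was called (0%), and 3 had an unadjusted p under 0.05.

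Of the exon genes, 4 passed the filter on low counts in this comparison, and all 4 had fitted changes above 0, where 35.3% of the 9661 features other than miRNAs did. The log2 changes were 1.33 for Ttr (SE 0.55, unadjusted p 0.0309), 1.09 for Apoa1 (SE 0.72), 0.90 for Alb (SE 0.62) and 0.83 for Trf (SE 0.60), each with an adjusted p of 0.767 in edgeR. Their median, 0.99, stood beside a median of -0.27 over all features tested. These genes share libraries and moved together, so the count of 4 is not 4 separate observations. Markers of other cell types also had fitted changes on one side of 0, namely above it for 6 of 6 smooth muscle and fibroblast genes (median 0.53), 2 of 2 leukocyte genes (1.01) and 4 of 4 red blood cell genes tested (0.37), and for 0 of 8 sperm and spermatid genes (-0.90). Of 5 epididymis epithelium genes tested, 1 lay above 0 (median -0.22). None of these genes was called, and their part in the values of the members was not tested. No member was called, and neither was any of the 9661 features (0%), 467 of which had an unadjusted p under 0.05.

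Apoa2 and Fgb were under the filter. Apoa2 averaged 1.87 CPM in Nrf2-/- ethanol and 1.23 CPM in Nrf2-/- control libraries (exact two-sided permutation test, p = 0.514). Fgb averaged 2.01 CPM in Nrf2-/- ethanol and 1.16 CPM in Nrf2-/- control libraries (exact permutation p = 0.629), and without Nrf2-/- ethanol 4 its difference was -0.0727 CPM. Summed over the 6 genes, the libraries held 111, 36.9, 35.8 and 199 CPM with ethanol, against 27.0, 45.6, 62.7 and 69.3 CPM in controls. The sums averaged 95.7 ± 77.3 CPM with ethanol and 51.1 ± 19.0 CPM in controls (SD, n = 4 each).

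The liver KO gave no call among the members either. mmu-miR-122-5p had a log2 change of -0.58 (SE 0.44) against flox, with an adjusted p of 0.553 in edgeR over 295 miRNAs, none of which was called (0%; 40 had an unadjusted p under 0.05). Alb (-0.25, SE 0.44), Apoa1 (-0.59, SE 0.53) and Trf (0.33, SE 0.45) passed the filter, with adjusted p of 0.678 to 0.843 in edgeR. Of all 9837 features other than miRNAs, 5 were called (0.0508%), and none was a member.

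Among those under the filter, Fgb averaged 0.809 CPM in liver KO and 2.09 CPM in flox libraries (exact permutation p = 0.2). Fgb reads came from liver KO 4 alone in the liver KO group, with 14 reads. Ttr averaged 1.59 CPM in liver KO and 3.06 CPM in flox libraries (exact permutation p = 0.314), and Apoa2 1.93 CPM in liver KO and 2.26 CPM in flox libraries (exact permutation p = 0.771). The smallest p that 4 against 4 libraries allow is 0.0286. The 6-gene sums were 7.33, 35.9, 62.0 and 83.0 CPM in liver KO libraries, against 89.6, 22.9, 109 and 39.4 CPM in flox libraries. They averaged 47.1 ± 32.8 CPM in liver KO and 65.3 ± 40.9 CPM in flox libraries (SD, n = 4 each), and the groups overlapped.

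Markers of other cell types were summed in the same libraries. The summed exons of 9 epididymis epithelium genes lay between 159 and 502 CPM in liver KO libraries, against 630 to 785 CPM in flox libraries, without overlap, and 1 of the 5 such genes tested was called lower. Those of 6 smooth muscle and fibroblast genes lay between 97.1 and 156 CPM in liver KO libraries, against 149 to 328 CPM in flox libraries, with overlap, and none of the 6 was called. The part of these markers in the values of the members was not tested.

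In WT males given alcohol, miR-122-5p, Alb and Trf overlapped the controls at every dose. The log2 change of mmu-miR-122-5p against controls was -0.52 (SE 1.25) at the low dose, 0.11 (SE 1.51) at the medium dose and -1.60 (SE 1.65) at the high dose, with adjusted p of 0.936 to 1 in edgeR over 338 miRNAs. None of the 338 miRNAs was called at any dose (0% each), while 41, 9 and 9 had an unadjusted p under 0.05; DESeq2 called 24, 7 and 7. At the low dose the change was 0.28 without WT control 1, so even its sign rested on that library. At the medium dose the lone library left without WT medium dose 1 gave -4.36.

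Alb and Trf were the 2 exon genes past the filter in WT libraries. Alb had log2 changes of 0.14 (SE 0.62), -0.21 (SE 0.79) and -0.54 (SE 0.79) at the low, medium and high dose, and Trf of 0.58 (SE 0.39), -0.21 (SE 0.51) and 0.36 (SE 0.46). Adjusted p in edgeR ran from 0.839 to 0.999. The sign of the low-dose change of Alb turned without WT control 1, WT low dose 1 or WT low dose 2, at -0.14, -0.001 and -0.36. At the low dose 8 of 17930 features other than miRNAs were called (0.0446%), and at the medium and high dose 0 (0% each), with 852 and 522 at an unadjusted p under 0.05; no member was among those called.

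The other 4 genes had at most 6 reads in any WT library. Fgb reads were found in both high-dose libraries (2 and 1 reads) and in 1 of 4 controls (1 read), and the high-dose pair lay above all controls. Of the features past the filter, 4.61% had such a pair in TMM-scaled CPM. Fgb was under that filter and was compared in CPM of all counts, so this share is not its chance rate. The exact permutation p of Fgb was 0.0667, the smallest that 2 against 4 libraries allow. For Ttr, Apoa1 and Apoa2 the exact permutation p was 0.333 or more at every dose.

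The 6-gene sums in WT males averaged 4.34 ± 2.68 CPM in controls (SD, n = 4) and 4.87 ± 1.43 CPM at the low dose (n = 4). The medium-dose pair had 5.38 and 0.704 CPM and the high-dose pair 5.28 and 3.08 CPM. Red blood cell exons behaved differently at the low dose: their 6-gene sum lay between 34.7 and 63.8 CPM, against 1.89 to 13.5 CPM in controls, and 3 of their 4 tested genes were called higher. Those calls are among the 8 of the low dose, and without WT control 1, control 2, low dose 1, low dose 2 or low dose 4 no feature was called. The hepatocyte sum of the low-dose libraries, 3.43 to 6.73 CPM, stayed inside the control range of 0.630 to 7.02 CPM.

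**Figure D3:**
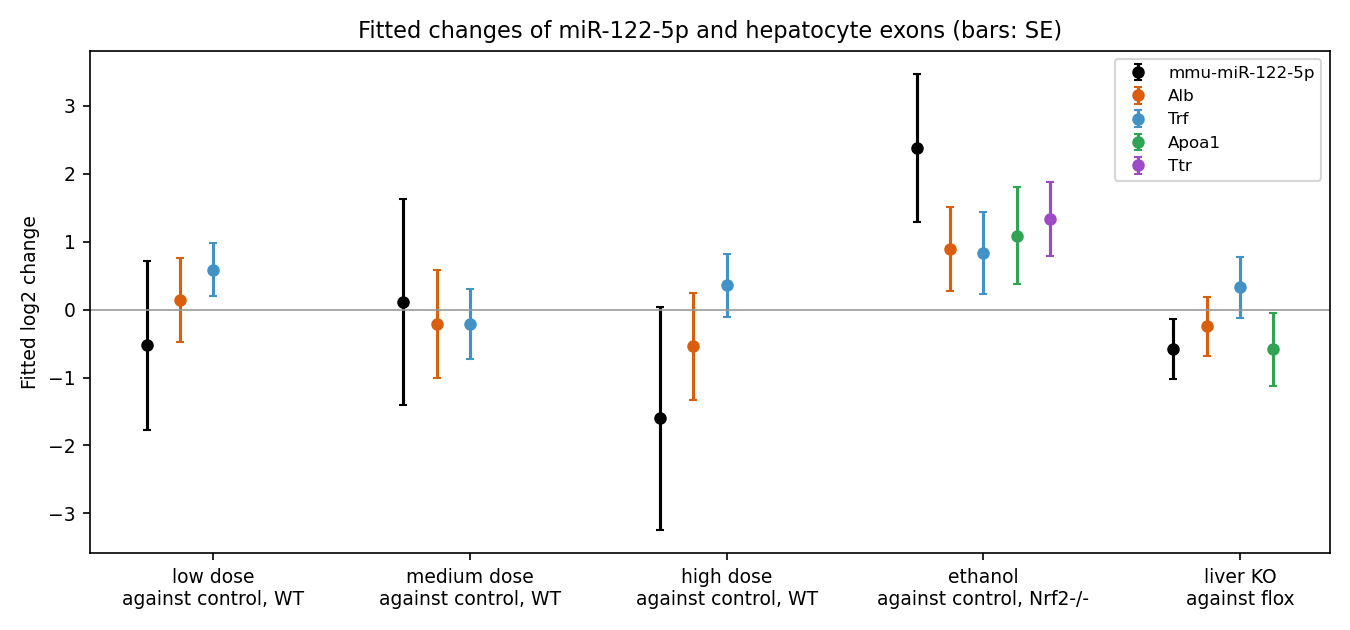
Fitted log2 change (points) with its standard error (bars) of mmu-miR-122-5p and of the exon genes past the filter on low counts, for the 5 comparisons. In the ethanol comparison of Nrf2-/- males all 5 points lie above 0, from 0.83 for Trf to 2.38 for the miRNA; no point passed the test after adjustment.

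Whether the miRNA and the exons varied together was read from deviations: log2 CPM of each library (0.5 added to each count) minus its group's mean, so that differences between groups do not enter. p-values are two-sided, from permuting libraries within groups, and are adjusted over the 6 genes within each set of libraries. In groups of 2 libraries the pair's deviations mirror each other.

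Across all 28 libraries the relation was weak and did not pass adjustment. For Alb, Pearson r was 0.57 and Spearman rho 0.52 (100000 permutations, p = 0.0282 and 0.0275, adjusted p 0.147 and 0.111). Fgb and Trf had r of 0.40 and 0.37 (adjusted p 0.147 each; rho 0.42 and 0.41, adjusted p 0.111 each), and Apoa1, Ttr and Apoa2 had r of 0.10, 0.07 and -0.08 (adjusted p 0.718 each; rho 0.20, 0.09 and -0.11). Without WT low dose 3 and WT medium dose 2, the libraries farthest from the median for miR-122, r for Alb was 0.32 (n = 26, adjusted p 0.311 by permutation). This also leaves WT medium dose 1 alone in its group, so that it carries no deviation and its pair drops out whole. The size of the pooled r of Alb thus depended on these libraries. The pooled value also depended on WT control 1, the library rich in structural RNA: without it r was 0.74 for Alb, 0.53 for Trf and 0.48 for Fgb, with adjusted p of 0.00474, 0.00984 and 0.0247 by permutation. With both measures as CPM of all counts, the same 3 genes had r of 0.72, 0.45 and 0.49 in the 28 libraries (adjusted p 0.0096, 0.025 and 0.025 by permutation). Both measures are then divided by the same total, which can by itself raise r, and the part of this shared divisor was not tested.

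Within the Nrf2-/- table the relation was tight, except for Apoa2. The share of all exon genes with r as high in these libraries is not given here. Over its 8 libraries, with all 576 within-group rearrangements enumerated, r was 0.96 for Alb (rho 0.83), 0.96 for Trf (rho 0.83), 0.92 for Apoa1 (rho 0.90), 0.89 for Ttr (rho 0.86) and 0.88 for Fgb (rho 0.76). Exact permutation p for r was 0.00347, 0.00694, 0.00868, 0.00174 and 0.0243 in that order, the value for Ttr being the smallest that the design allows. Adjusted exact p for r was 0.0104 for Alb and Ttr, 0.013 for Trf and Apoa1 and 0.0292 for Fgb; for rho it was 0.0208, 0.0104, 0.0339, 0.0104 and 0.0604 for Alb, Ttr, Trf, Apoa1 and Fgb. Apoa2 had r of 0.62 and rho of 0.48, with adjusted exact p of 0.175 and 0.285.

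The relation was recomputed without single libraries. Leaving out each of the 8 libraries in turn, r for Alb stayed between 0.93 and 0.99 with adjusted exact p of 0.0208 to 0.0417, and without ethanol 4 it was 0.93. For Ttr, Apoa1 and Trf the adjusted p stayed under 0.05 in 6, 7 and 7 of the 8 cases, and for Fgb in 1, with r between 0.60 and 0.95. Without the 2 libraries farthest from the median for miR-122, Nrf2-/- ethanol 4 and control 1, r was 0.92 for Alb, 0.92 for Apoa1, 0.91 for Ttr and 0.90 for Trf (n = 6, adjusted exact p 0.0833 to 0.167). Fgb had 0.72 and Apoa2 0.39 (adjusted exact p 0.333 and 0.5), and no relation passed adjustment over these 6 libraries. Unadjusted exact permutation p was 0.0278 for Ttr and Apoa1, the smallest that so few rearrangements allow. Passing adjustment over 6 genes would need several genes at this value, so the lack of a call does not show that the relation was lost. These left-out values were added after the data had been seen.

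In plain counts, all 8 Nrf2-/- libraries had miR-122 and the 6-gene sum on the same side of their group means. Nrf2-/- ethanol 4 lay 2.81 above its group mean for miR-122 and 1.43 above it for the sum, in log2 units, and ethanol 3 lay 1.60 and 1.04 below. Of the controls, control 1 lay 1.61 and 0.83 below its group mean and control 3 lay 0.96 and 0.38 above. The deviations of miR-122 were larger than those of the sum in 7 of the 8 libraries; in ethanol 1 they were 0.05 for miR-122 and 0.60 for the sum. For the sum r was 0.96 and rho 0.83.

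In the liver KO table no relation passed the test. r was 0.47 for Ttr, 0.29 for Trf, 0.23 for Apoa2, 0.14 for Alb, 0.11 for Fgb and 0.06 for Apoa1 (n = 8, adjusted exact permutation p 0.873 each; rho 0.10 to 0.26), and r for the sum was 0.19. In some libraries the miRNA and the exons stood apart. Liver KO 4 had the most 6-gene reads of its group. Its miR-122 was the lowest of the group in CPM of miRNA counts (4238, against 4390 in liver KO 1). As CPM of all counts its miR-122 was 962, against 540, 610 and 1410 in liver KO 1, 2 and 3, so its low place rested on the scale. Flox 2 had 8291 miR-122 reads beside 96 exon reads, the lowest 6-gene sum of its group. Flox 2 thus held 86.4 miR-122 reads per exon read, against 14.9 to 17.6 in the other 3 flox libraries, and liver KO 1 held 73.6, against 11.6 to 22.7 in the other 3 liver KO libraries. In the Nrf2-/- table this ratio stayed between 10.4 and 27.0 with ethanol and between 6.96 and 9.89 in controls.

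WT libraries gave a mixed picture at low counts. r was 0.59 for Alb (rho 0.59), 0.48 for Fgb, 0.15 for Trf, -0.22 for Apoa1, -0.33 for Ttr and -0.64 for Apoa2 (n = 12, 2304 rearrangements, adjusted exact p 0.216 to 0.749), with rho of 0.45, 0.31, -0.04, -0.43 and -0.73 for the last 5. Apoa2, the lowest, rested on 4 reads in all. Without WT low dose 3 and WT medium dose 2, r for Alb was -0.11 and for the sum -0.35, with WT medium dose 1 left alone in its group. Without WT control 1, r was 0.87 for Alb (rho 0.87, adjusted exact p 0.135), 0.63 for Trf (adjusted exact p 0.273) and 0.79 for the sum, against 0.29 for the sum with it. WT control 1 had 642 CPM of miR-122 and a 6-gene sum of 0.630 CPM, the ends of the table on these scales; as CPM of all counts miR-122 was highest in WT medium dose 1 instead, at 120, and without structural RNA its sum was 2.60 CPM, against 1.03 in WT medium dose 2. miR-122 and the sum lay on the same side of the group mean in 7 of 12 WT libraries and in 6 of 8 libraries of the liver KO table. Whether the relation differed between tables was not tested.

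**Figure D4:**
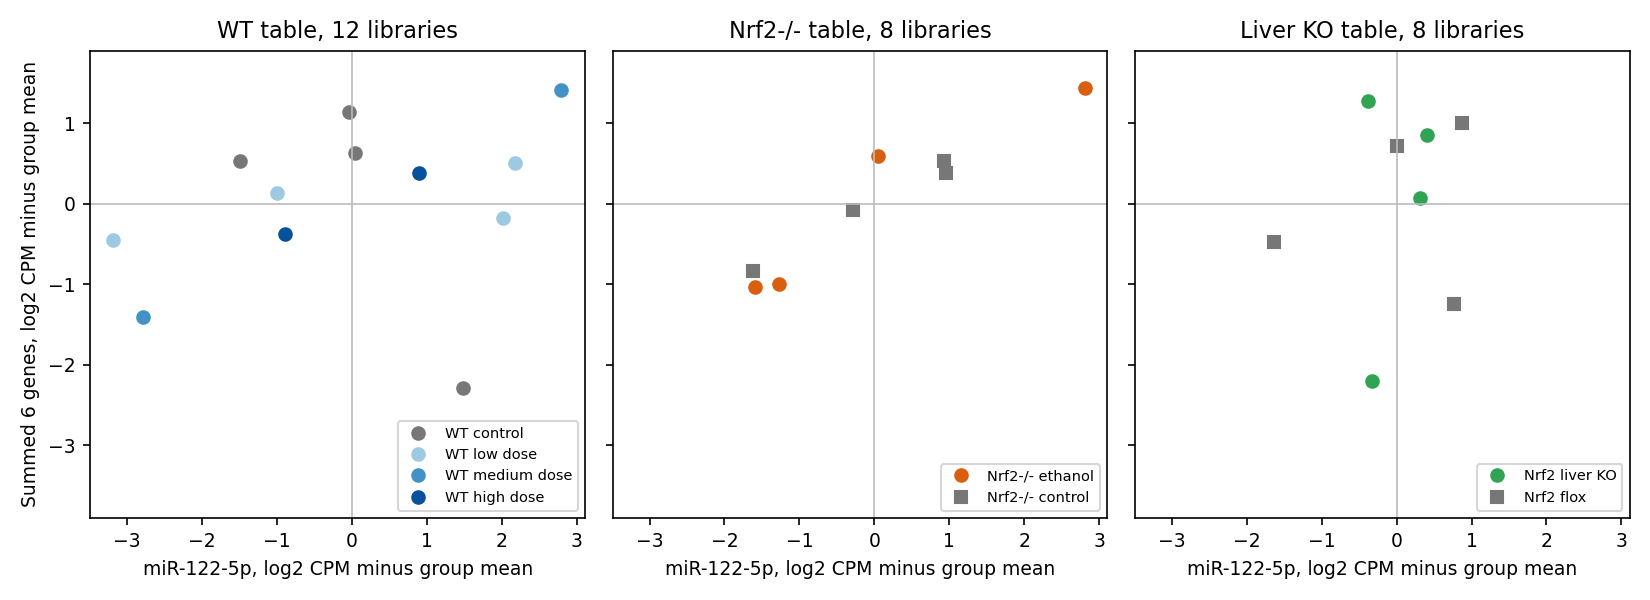
Deviation of the summed 6 genes from the group mean against that of miR-122-5p, both in log2 CPM with 0.5 added to each count, for the 3 tables on shared axes; each point is 1 library. The 8 Nrf2-/- libraries lie along a rising line (r 0.96), while the liver KO table (r 0.19) and the WT table (r 0.29) scatter, with WT control 1 at the lower right.

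Sums of other hepatocyte genes also varied with miR-122 in the Nrf2-/- table. The sum of 21 other secreted-protein genes had r of 0.94 (rho 0.83) and that of 14 hepatocyte enzymes and factors r of 0.93 (rho 0.86), each with an adjusted exact permutation p of 0.00347 over the pair of lists (0.0139 for rho). All members of both lists had reads in that table. In the liver KO table r was 0.46 and 0.68 (adjusted exact p 0.345 and 0.222), and in WT libraries it was 0.27 and 0.02 (adjusted exact p 0.969 each). Abundant genes of these lists in the Nrf2-/- table were Apob (the structural protein of very low-density lipoprotein, 695 reads), C3 (complement component, 636 reads) and Serpina1a (an alpha-1-antitrypsin, 143 reads), and among enzymes Cps1 (the first step of the urea cycle, 136 reads) and Cyp2e1 (an ethanol-oxidising cytochrome, 78 reads).

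Tested one by one, these genes gave no call. In the ethanol comparison of Nrf2-/- males, 7 of the 21 secreted-protein genes were tested, 6 with a fitted change above 0 and a median of 0.77, and Cps1, the one enzyme tested, had 0.82. In the liver KO comparison 4 secreted-protein genes were tested, 1 of them with a change above 0, as 50.7% of all features had. In WT males 4 were tested at each dose, and 1, 1 and 0 of them had a change above 0 at the low, medium and high dose, as did 50.3, 50.2 and 54.5% of all features.

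Exons of red blood cell genes followed miR-122 in the Nrf2-/- table by r, and their relation in the liver KO table did not pass adjustment. In the Nrf2-/- table r was 0.82 and rho 0.90 (adjusted exact permutation p 0.0312 and 0.0833, over 6 lists), and in the liver KO table r was 0.86 and rho 0.81 (adjusted exact p 0.0938 and 0.109). Their sum lay between 9.74 and 31.6 CPM with ethanol and between 5.19 and 32.9 CPM in controls of the Nrf2-/- table. The red blood cell miRNA miR-451a did not follow miR-122 in this way. It had r of -0.55 (rho -0.12) in the Nrf2-/- table and 0.05 (rho -0.10) in the liver KO table. Adjusted exact permutation p for r was 0.417 and 0.901 over 4 miRNAs. Slc4a1, the anion exchanger of red blood cells, had no read in the liver KO table. The part of blood in the relation of miR-122 with the hepatocyte exons was not tested. Leukocyte, smooth muscle and sperm lists had r between -0.26 and 0.54 in these 2 tables, with no adjusted exact p under 0.05. Epididymis epithelium had r of -0.33 in the Nrf2-/- table (adjusted exact p 0.639). It had r of 0.43 but rho of 0.81 in the liver KO table (adjusted exact p 0.0938 and 0.0104), and Sertoli cell genes r of -0.08 and 0.59 in the Nrf2-/- and liver KO tables (adjusted exact p 0.87 and 0.257); of the Sertoli list, Rhox5 had no read in any table.

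No other liver miRNA had a relation with miR-122 that passed the test. In the Nrf2-/- table, where the hepatocyte exons were abundant, miR-194-5p and miR-802-5p had no read, miR-192-5p had 1 to 14 reads and miR-148a-3p 0 to 68 reads per library. Nrf2-/- ethanol 4, with 28040 reads of miR-122-5p, had 2 reads each of miR-192-5p and miR-148a-3p and 4 reads of miR-451a. In the liver KO table miR-192-5p had 84 to 598 reads and miR-194-5p 123 to 528, and in the WT table miR-194-5p had 2273 reads in WT control 4 and none elsewhere. Over the 28 libraries r with miR-122 was -0.29 for miR-192-5p, -0.22 for miR-148a-3p and -0.38 for miR-451a (rho -0.33, -0.24 and -0.22; adjusted permutation p 0.226, 0.332 and 0.226 over 4 miRNAs). In the liver KO comparison miR-148a-3p had a log2 change of -1.73 (SE 0.57, unadjusted p 0.00987), which edgeR did not call after adjustment (adjusted p 0.336 for mmu-miR-148a-3p).

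Ranked over the whole series, Alb was among the exon genes most like miR-122. Of 13371 exon genes with reads in at least 20 libraries, the highest r over 28 libraries belonged to Fam83c (0.60), Hoga1 (0.60), Mroh6 (0.58), Plekhg3 (0.58) and Alb (0.57); the 95th percentile was 0.24. The first 4 had few reads: Hoga1, which breaks down hydroxyproline, had 34, 8 and 9 in the WT, Nrf2-/- and liver KO tables, where Alb had 137, 2034 and 1023. Trf ranked 126, Apoa1 2459 and Ttr 3247, and Apoa2 and Fgb had reads in too few libraries to be ranked. Of the other hepatocyte genes, Rbp4 (retinol-binding protein) ranked 33, Apob 42, C3 43, Hp (haptoglobin) 62 and Ahsg (fetuin-A) 72; these were picked for their ranks, and among the rest Cps1 ranked 3532 and Plg (plasminogen) 4911.

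Of 152 miRNAs with a mean of at least 10 CPM in each table, the most alike were miR-181a-5p (r 0.56), miR-669c-5p (0.50), miR-672-5p (0.46), miR-100-5p (0.45) and miR-335-5p (0.44). The 95th percentile of these miRNAs was 0.39. These coefficients describe 28 libraries that share 3 tables, and carry no test.

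**Figure D5:**
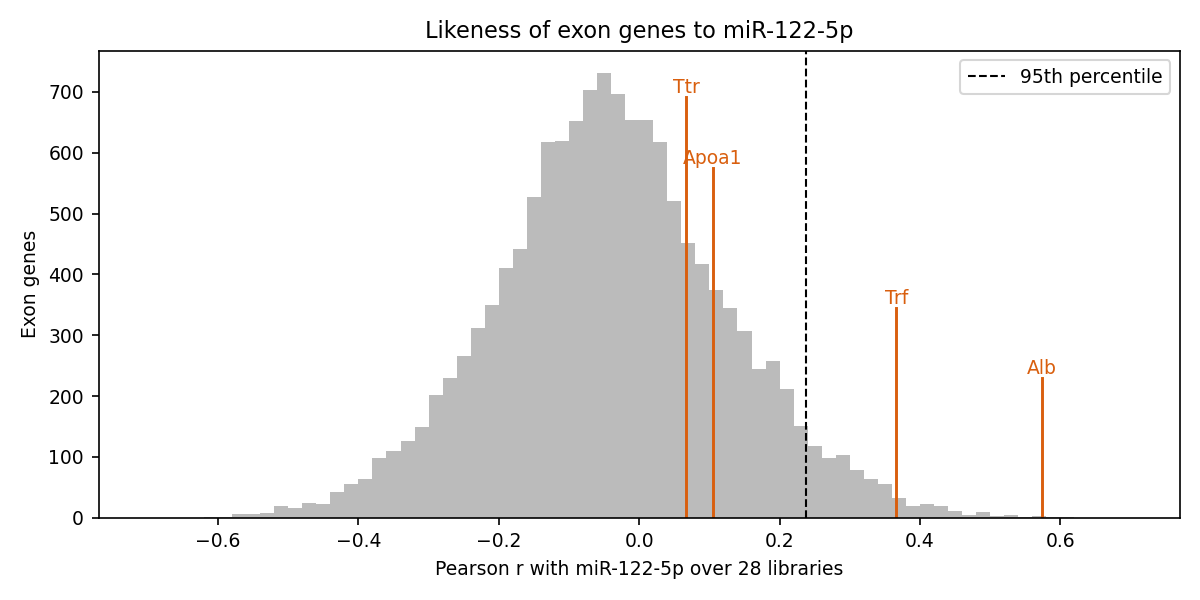
Pearson r with miR-122-5p of 13371 exon genes over 28 libraries (deviations from group means of log2 CPM, grey bars count genes), with the 4 hepatocyte members that had reads in at least 20 libraries marked. Alb (0.57) and Trf (0.37) lie beyond the 95th percentile of 0.24 (dashed), and Apoa1 (0.10) and Ttr (0.07) do not.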

How the data were processed

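Small RNA of sperm was sequenced after Trizol extraction and a Qiaseq small RNA library, per the labels' protocols. The authors deposited 3 tables of raw read counts per annotated feature. The sources used here give no aligner, counting tool, genome build or treatment of reads with several positions; positions come from RefSeq (GRCm38.p6) and not from the tables. Groups and columns came from the labels. Exon rows were summed per gene.

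miRNAs and all other features were fitted as separate families, per table (12, 8 and 8 libraries), in edgeR 4.0.16 (R 4.3.3): filterByExpr, TMM scaling, the two-sided quasi-likelihood test and Benjamini-Hochberg adjustment at 0.05. Members under the filter had an exact permutation test of CPM. DESeq2 1.42.0 was an alternative. Relations used Python 3.11.15 with scipy 1.17.1. The fits were tested on simulated data.

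The members and lists were chosen with earlier results of these data known. The text names the members, the 3 most abundant genes of the hepatocyte lists and the 5 miRNAs and 5 exon genes most like miR-122; other hepatocyte genes with a rank were picked after the ranks were seen. One gene that this rule would name is not reported here. The libraries held 1993933 to 11119711 counts, which limits scarce genes most.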

Additional observations from a re-analysis of the deposited data

Results flagged for a closer look

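Of 60 checks of 1 library against the other 3 of its group, 6 marked a library as far from the others; chance does so in about 1 of 20, a rate that does not apply to the 3 marks of Fgb, where 1 library with reads stood against 3 with none. mmu-miR-122-5p stood at 23624 CPM in Nrf2-/- ethanol 4, against 1112 to 3491 CPM in the other ethanol libraries. Flox 2 held 86.4 reads of the miRNA per exon read of the 6 genes, against 14.9 to 17.6 in the other flox libraries. Apoa2 stood at 5.01 CPM in flox 3, against 1.17 to 1.45 CPM in the others. Fgb was at 3.24 CPM in liver KO 4 (14 reads), at 0.132 CPM in WT control 4 (1 read) and at 0.217 CPM in WT low dose 2 (2 reads), with no read in the other libraries of these groups.

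The opposite arm, mmu-miR-122-3p, which entered no comparison, averaged 0.249 CPM of all counts in the 2 high-dose libraries (3 reads and 1 read), against 0 in the 4 WT controls. Its reads were not particular to the high dose: WT low dose 1 had 1, and WT low dose 2 and WT medium dose 1 had 3 each. The other low- and medium-dose libraries had none.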

How the results depend on the processing

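No setting called a member in any comparison. The log2 change of mmu-miR-122-5p kept its direction under all fits over all libraries at the low and high dose, with ethanol and in the liver KO. At the medium dose it was 0.11 and turned to -0.0574 with the size factors of DESeq2, -0.0585 with its Wald test, -0.0903 with only the groups compared and -1.86 with the replicate block; the cause was not tested. Same-numbered samples had deviations that correlated from -0.53 to 0.49, so the numbers were not taken to pair samples; the replicate block gave -1.11 at the low dose, -2.99 at the high dose, 1.62 with ethanol and -0.37 in the liver KO, and 42 in place of 8 and 25 in place of 5 other features called at the low dose and in the liver KO (1 miRNA in place of 0 there). Without each library in turn, the change ran from -1.10 to 0.28 at the low dose, -4.36 to 1.19 at the medium dose, -2.75 to -0.88 at the high dose, 0.56 to 2.70 with ethanol and -0.90 to -0.26 in the liver KO; a group left with 1 library was assumed to vary like the others. The log2 ratio of the 6-gene sums was 0.17, -0.51, -0.05, 0.90 and -0.47 in these comparisons, and ran from -2.63 to 0.31 at the medium dose.

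For the pooled relations, leaving out each library gave r of 0.40 to 0.74 for Alb, -0.0363 to 0.15 for Ttr, -0.0183 to 0.27 for Apoa1, -0.21 to 0.00154 for Apoa2, 0.31 to 0.59 for Fgb, 0.26 to 0.53 for Trf and 0.27 to 0.60 for the sum. Ttr turned without Nrf2-/- ethanol 4 (-0.0202) or flox 4 (-0.0363), Apoa1 without Nrf2-/- ethanol 4 (-0.0183) and Apoa2 without WT control 1 (0.00154). Within tables, r turned to -0.33 for Ttr and -0.22 for Apoa1 in the WT table, and to 0.62 and 0.23 for Apoa2 in the Nrf2-/- and liver KO tables; without the 2 farthest libraries Apoa2 had 0.0015. Relations passed adjustment in the Nrf2-/- table at r of 0.96 for Alb and Trf, 0.92 for Apoa1, 0.89 for Ttr and 0.88 for Fgb. As CPM of all counts, where both measures share a divisor, they passed at 0.72, 0.49 and 0.45 for Alb, Fgb and Trf. The sum's 0.40 moved to 0.54 as CPM of all counts, 0.29, 0.96 and 0.19 in the WT, Nrf2-/- and liver KO tables, and 0.25 without the 2 farthest.

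Among genes one by one, testing without a filter gave fitted log2 changes of 0.082 for Ttr and -0.30 for Apoa2 at the low dose and 0.027 for Apoa2 in the liver KO, each against the sign of the CPM difference. Leaving out 1 library turned Alb (-0.36 to 0.42), Ttr (-0.114 to 0.0723 CPM), Apoa2 (-0.0257 to 0.0306 CPM) and Fgb (-0.0331 to 0.0543 CPM) at the low dose; Alb (-6.57 to 0.76), Trf (-1.34 to 0.41) and Fgb (-0.0331 to 0.243 CPM) at the medium dose; Ttr (-0.158 to 0.0133 CPM) at the high dose; Fgb (-0.0727 to 1.28 CPM) with ethanol; and Alb (-0.75 to 0.20), Apoa2 (-1.15 to 0.581 CPM) and Trf (-0.074 to 0.82) in the liver KO. The number of other features called in the liver KO ran from 0 to 208 without 1 library. DESeq2 called 24, 7, 7, 0 and 0 miRNAs in the 5 comparisons where edgeR called 0, and 29, 6 and 41 other features at the low dose, with ethanol and in the liver KO; without a filter edgeR called 160, 54, 21, 1 and 75. With all counts as library size it called 0 at the low dose and 13 in the liver KO. Low counts limit Ttr, Apoa2 and Fgb in WT libraries, where most have no read.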

Other observations

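The Nrf2-/- control libraries differed far more in epididymal markers than in hepatocyte sums. Summed epididymis epithelium exons were at 1570 and 1313 CPM in controls 1 and 2, against 52.5 and 36.4 CPM in controls 3 and 4, and the 6-gene hepatocyte sums of controls 1 to 4 were 27.0, 45.6, 62.7 and 69.3 CPM.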
